A study of Mus musculus with 12 samples.

Results

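Lamina-associated domains (LADs), stretches of chromatin that touch the nuclear lamina, were compared between control mouse embryos at the 8-cell stage and at the 4-cell stage, that is across a single cleavage. The comparison takes 6 of the study's 12 samples, 3 pools of 8-cell embryos and 3 pools of 4-cell embryos, both injected with the control siRNA siControl. The remaining 6 samples are Rif1-depleted embryos (siRif1) of the same stages, used here as other embryos in which to look at the same bases. The authors deposited 1 LAD list per group, made from all its replicates, so 2 lists are compared and no value below has an SD over replicates or a p-value.

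All embryos had the genotype (C57BL/6J xCBA) x DBA/2J. Zygotes received 20 µM siRNA at 17 to 18 h after hCG, the hormone that triggers ovulation. At 46 to 48 h, at the late 2-cell stage, the blastomeres received Tir1 at 250 ng/µL, a membrane-eGFP marker at 100 ng/µL and AID-Dam-LaminB1 at 20 ng/µL, and the embryos were then kept in 500 µM auxin. Tir1 with auxin degrades proteins that carry the AID tag, so removal of auxin opens the time in which the fusion marks DNA. Auxin was removed at 66 h for 8-cell embryos, which were collected at 72 to 74 h, and at 54 h for 4-cell embryos, which were collected at 60 to 62 h. Each replicate was a pool of 16 to 24 blastomeres, which took 2 to 3 embryos of 8 cells or 4 to 6 embryos of 4 cells. A list is therefore a summary over pooled cells, and a share of cells in contact cannot be read from it. The lists hold no expression values, so the stage rests on the labels.

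The lamina is a mesh of lamins under the inner nuclear membrane, and chromatin that touches it is, in most cell types, poor in genes, late in replication and little transcribed. In mouse embryos LADs are set up anew after fertilisation and are rearranged during the cleavages that follow genome activation. In DamID, a bacterial adenine methyltransferase (Dam) fused to a lamin methylates the A of the sequence GATC in DNA near the lamina, and the methylated fragments are amplified and sequenced.

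The 8-cell list held 746 LADs covering 1066.7 Mb, against 601 LADs covering 785.7 Mb in the 4-cell list. These are 44.7% of the mapped span at the 8-cell stage and 32.9% at the 4-cell stage, where the span of 2384.9 Mb is, on each of chromosomes 1 to 19, the part between the outermost LADs of the 4 lists. The list was thus 281 Mb, or 35.8%, longer after the cleavage. A set of 582.6 Mb was LAD at both stages. A further 484.1 Mb was LAD at the 8-cell stage alone, called gained below, and 203.1 Mb was LAD at the 4-cell stage alone, called released. Gain and release were both large, and 28.8% of the span changed its call. The lists give calls and no signal, so how far a contact moved within a call is not known.

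The added coverage was made up of more LADs and of more very long ones, while the typical LAD hardly differed. The median LAD was 1 Mb long at the 8-cell stage and 0.9 Mb at the 4-cell stage. LADs of 5 Mb or longer numbered 27 at the 8-cell stage and 9 at the 4-cell stage. The longest LAD was 10.1 Mb at the 8-cell stage, on chromosome 7, and 9.9 Mb at the 4-cell stage, on chromosome 1.

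Coverage was higher at the 8-cell stage on 18 of 19 chromosomes, with a mean difference of 11.4 ± 7.11 percentage points (SD over the 19 chromosomes, which share the same libraries). Chromosome 13 differed most, with 46.3% in LADs at the 8-cell stage and 20.4% at the 4-cell stage. Chromosome 4 followed with 48.6% at the 8-cell stage and 25.7% at the 4-cell stage. The next largest differences were 16.3 points on chromosome 2, 16.2 points on chromosome 17 and 15.1 points on chromosome 12. Chromosome 6 was the exception, with 37.3% at the 8-cell stage and 39.5% at the 4-cell stage. Chromosomes 11 and 8 differed by 1.77 and 2.38 points. The order of the chromosomes was partly kept, with a Pearson r of 0.61 between the 2 stages' coverages over 19 chromosomes. Gene number per Mb had little relation to coverage at this scale, with r of -0.17 at the 8-cell stage and 0.03 at the 4-cell stage, which is given as a description only.

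**Figure D1:**
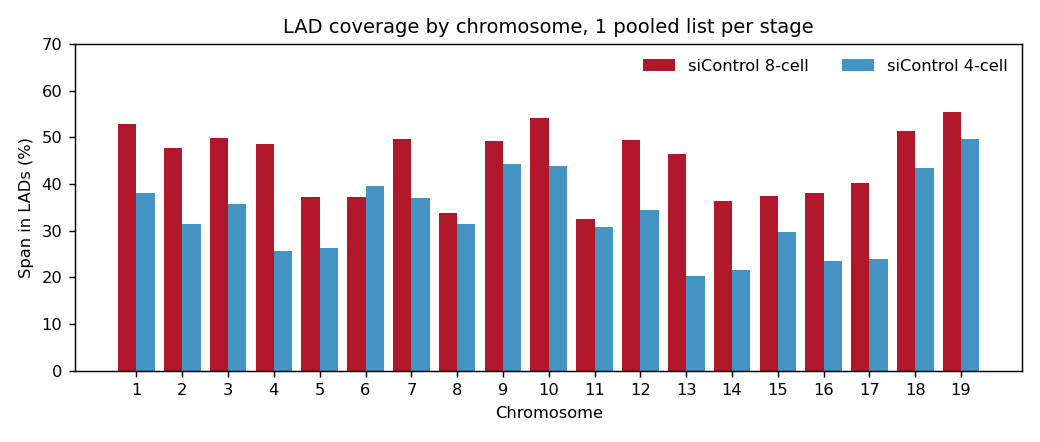
Percentage of each chromosome's span in LADs (vertical axis) for chromosomes 1 to 19 (horizontal axis), with a bar for siControl 8-cell embryos left of a bar for siControl 4-cell embryos; each bar is a value of 1 pooled list, without error. The 8-cell bar is the higher on 18 of 19 chromosomes, chromosome 13 has the widest gap (46.3% against 20.4%) and chromosome 6 is the exception.

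Most 4-cell LADs kept the greater part of their bases, but few kept their borders. Of the 601 4-cell LADs, 254 lay wholly within 8-cell LADs, 205 kept at least 50% of their bases, 56 kept less, and 86 kept no base. Only 11 LADs had the same start and end in both lists. Of the 1202 borders of 4-cell LADs, 396 moved outward at the 8-cell stage, by a median of 300 kb, and 265 moved inward, by a median of 200 kb. A further 216 borders disappeared because the LAD was joined to its neighbour, 172 went with LADs that kept no base, and 153 did not move. Counted with the 188 borders that moved by 1 bin of the 100-kb grid, 28.4% stayed within the resolution of the map.

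Gain took place mainly at existing LADs. Of 755 gained stretches, 401 extended a 4-cell LAD and made up 45.1% of the gained bases. Another 109 closed the gap between neighbouring 4-cell LADs (22.1% of gained bases), and 245 were freestanding (32.8%). Short gaps were closed more often, 55 of 126 gaps of 500 kb to under 1 Mb, but 12 of 186 gaps of 2 to under 5 Mb and 0 of 83 gaps of 5 Mb or longer. In all, 84 8-cell LADs joined 2 or more 4-cell LADs. The most joined were 5, in an 8.6-Mb 8-cell LAD on chromosome 2 (132800001 to 141400000, build mm10), of which 69.8% had been LAD at the 4-cell stage. Released stretches were classed by how many of their ends touched an 8-cell LAD. Of 439, 266 were retractions of a border, 91 split a LAD and 82 were whole 4-cell LADs. A lost 4-cell LAD that touched a gained stretch is not among the 82, which is why they are fewer than the 86 LADs that kept no base. The whole LADs that were released were short, at a median of 0.3 Mb, and rich in genes, at 13.8 protein-coding genes per Mb against 8.45 over the span.

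The 10 longest gained stretches named here held at most 8 protein-coding genes each, apart from a receptor cluster with 34. The longest, 3.8 Mb on chromosome 13 (78600001 to 82400000), extended a 4-cell LAD and held 6 protein-coding genes, among them Adgrv1, a giant adhesion receptor of sensory cells, Mblac2 and Polr3g, a subunit of RNA polymerase III. A 3.4-Mb stretch of chromosome 7 (85000001 to 88400000) closed a gap and held 34 genes. These were mainly 15 olfactory and 14 vomeronasal type 2 receptors, with Grm5, a metabotropic glutamate receptor, Nox4, an NADPH oxidase, and Tyr, the tyrosinase of pigment synthesis. The 3.3 Mb on chromosome 12 (45200001 to 48500000) held the neuronal splicing factor Nova1 as its only protein-coding gene. The only protein-coding gene in 2.8 Mb on chromosome 7 (52900001 to 55700000) was Luzp2. A freestanding 3.2 Mb on chromosome 14 (36100001 to 39300000) held Nrg3, a neuregulin ligand of ERBB4, with Ccser2 and Lrit1. On chromosome 4, 3.1 Mb (74700001 to 77800000) lay over Ptprd, a receptor tyrosine phosphatase of synapses, and Dmac1. On chromosome 16, 2.7 Mb (5600001 to 8300000) lay over Rbfox1, another neuronal splicing factor. The 2.7 Mb on chromosome 5 (68700001 to 71400000) held the GABA-A receptor genes Gabra2 and Gabrg1 beside Kctd8, an auxiliary GABA-B receptor subunit. The 2.7 Mb on chromosome 6 (103700001 to 106400000) held the contactins Cntn4 and Cntn6, adhesion molecules of axons. The last of the 10 longest, 2.5 Mb on chromosome 12 (25300001 to 27800000), held Rnf144a with the interferon-induced Rsad2 and Cmpk2. It was tied in length with stretches on chromosome 18 (53700001 to 56200000, 3 genes) and chromosome 3 (146000001 to 148500000, 15 genes), which are not counted among the 10.

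The longest released stretches were shorter and held more genes. The longest, 3.1 Mb on chromosome 18 (10400001 to 13500000), retracted from a 4-cell LAD and held 19 protein-coding genes. They included Lama3, a laminin chain, Greb1l, Osbpl1a, the endoderm factor Gata6 and the imprinted gene Impact. A whole 4-cell LAD of 2.6 Mb on chromosome 9 (54000001 to 56600000) with 31 genes was released, among them Scaper, Peak1 and Dmxl2. Its bases were 30.8% LAD in siRif1 8-cell embryos and 92.3% LAD in siRif1 4-cell embryos, so the siRif1 lists differed in the same direction there. This held for 8 of the 10 longest released stretches, and the siRif1 8-cell value was the higher one on chromosome 11 (16800001 to 18700000, 68.4% in siRif1 8-cell and 63.2% in siRif1 4-cell embryos) and chromosome 7 (36.4% in siRif1 8-cell and 31.8% in siRif1 4-cell embryos). Of the 10 longest gained stretches, 7 were more LAD in siRif1 8-cell than in siRif1 4-cell embryos. The 3 others were those of Rbfox1 (18.5% in siRif1 8-cell and 74.1% in siRif1 4-cell embryos), Luzp2 (28.6% in siRif1 8-cell and 35.7% in siRif1 4-cell embryos) and Rnf144a (32% in siRif1 8-cell and 40% in siRif1 4-cell embryos). The tied stretches of chromosomes 18 and 3 were 96% and 72% LAD in siRif1 8-cell embryos. In siRif1 4-cell embryos they were 88% and 60% LAD. The 2.4 Mb on chromosome 8 (89500001 to 91900000) held the RNA demethylase gene Fto, the chromatin remodeller Chd9 and Tox3, and was 16.7% LAD in siRif1 8-cell embryos and 100% in siRif1 4-cell embryos. Splits released 2.3 Mb on chromosome 3 (102800001 to 105100000) with 30 genes, including Sycp1 of the meiotic synaptonemal complex, Magi3 and St7l, and 2.2 Mb on chromosome 7 (109000001 to 111200000) with 27 genes, including Sbf2, Denn2b and Stk33. A split also released 1.9 Mb on chromosome 11 (16800001 to 18700000) with Egfr, the receptor of epidermal growth factor, Ppp3r1 and Plek. The 2 Mb on chromosome 6 (11100001 to 13100000) held Thsd7a, Phf14 and Tmem106b. A second stretch of that chromosome, a whole LAD of 1.9 Mb (32000001 to 33900000), held Exoc4, an exocyst subunit, Plxna4, a semaphorin receptor, and Chchd3. The remaining 1.8-Mb stretches lay on chromosome 11 (75900001 to 77700000, with Ssh2, Abr and Nxn) and on chromosome 9 (66200001 to 68000000, with Tln2, Herc1 and Vps13c).

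**Figure D2:**
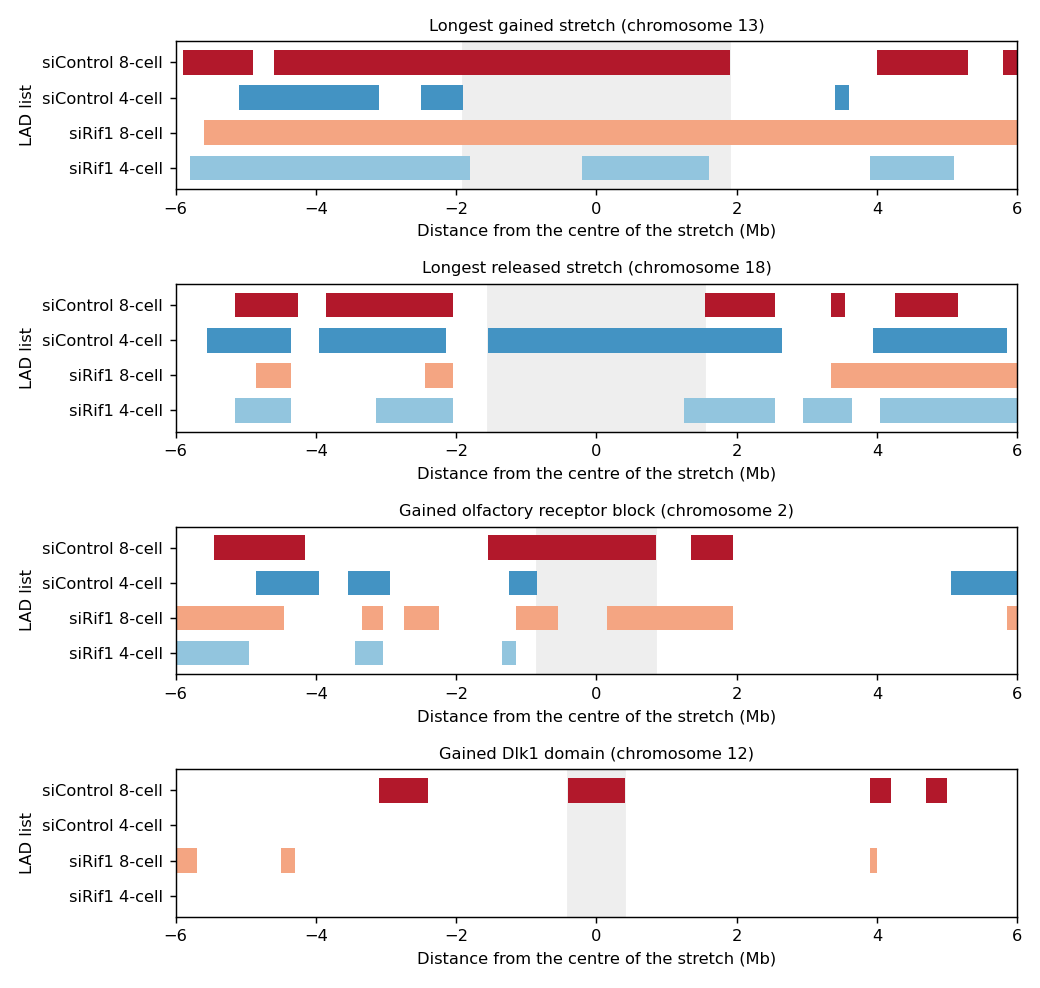
LADs of 4 pooled lists, drawn as blocks from top to bottom for siControl 8-cell, siControl 4-cell, siRif1 8-cell and siRif1 4-cell embryos, against distance from the centre of a stretch in Mb (horizontal axis); grey shading marks the stretch. In the gained stretches the shaded part is filled in the top row and empty in the row under it, and in the released stretch on chromosome 18 the reverse; the gained Dlk1 domain on chromosome 12 (0.8 Mb) is a LAD in siControl 8-cell embryos and in none of the other 3 lists.

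The difference between the stages lay in regions with few genes. In 1-Mb blocks without a protein-coding gene midpoint (255 blocks), 39.3% of bases were LAD at the 8-cell stage and 9.61% at the 4-cell stage. In blocks with 1 to 2 genes the values were 60.9% at the 8-cell stage and 33.2% at the 4-cell stage, and with 3 to 5 genes they were 64.4% at the 8-cell stage and 53.2% at the 4-cell stage. Blocks with 6 to 10 genes hardly differed, at 43.2% in 8-cell embryos and 42.4% in 4-cell embryos, nor did those with 11 to 20 genes, at 22.8% in 8-cell embryos and 22.9% in 4-cell embryos. Blocks with more than 20 genes had 17.5% at the 8-cell stage, below the gene-free blocks, and 12.1% at the 4-cell stage, above them. The gene-free blocks had higher 8-cell coverage on 18 of 19 chromosomes, and on chromosome 19 the only such block was LAD at neither stage. Blocks that no gene body entered (193 blocks) gave 37.98% at the 8-cell stage and 7.72% at the 4-cell stage.

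The gene-free blocks were also set against the other embryos. They were 56% LAD in siRif1 8-cell embryos and 38.4% LAD in siRif1 4-cell embryos, so the value of 9.61% belonged to the control 4-cell list among the 4. Over all 1-Mb blocks the 4 lists were closer, at 44.7% in siControl 8-cell, 32.9% in siControl 4-cell, 42.8% in siRif1 8-cell and 43.5% in siRif1 4-cell embryos. Whether reads could be mapped in these regions was not tested, since no signal track or genome was used here.

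**Figure D3:**
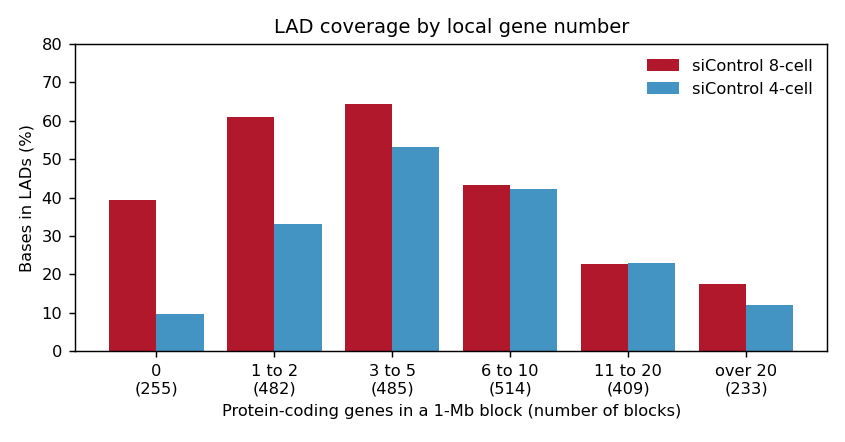
Percentage of bases in LADs (vertical axis) in 1-Mb blocks grouped by their number of protein-coding genes (horizontal axis, number of blocks in brackets), with siControl 8-cell embryos left of siControl 4-cell embryos; 1 pooled list per stage, without error. The stages differ widely in blocks with 0 to 2 genes and hardly in blocks with 6 to 20 genes, and the 4-cell value is lowest where there are no genes (9.61%).

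The 4 classes of bases differed in their genes. Gained bases held 4.64 protein-coding genes per Mb and released bases 9.51 per Mb, beside 5.23 in bases that were LAD at both stages and 11.6 in bases that were LAD at neither. Bins without a protein-coding gene made up 53.3% of gained bins and 18.7% of released bins, beside 35.2% of all bins. The share was 34.4% in bins LAD at both stages and 30.7% in bins LAD at neither. The median gene was 11.8 kb long in the gained class and 25.9 kb in the released class. It was 27.6 kb in the class LAD at both stages, 16.1 kb at neither and 17.8 kb over the span. Without the short olfactory and vomeronasal receptor genes the gained and released medians were closer, at 21.6 kb in the gained class and 26.8 kb in the released class. Of the 216 genes of 500 kb or longer, 65.3% lay in LADs at the 8-cell stage and 45.4% at the 4-cell stage. Among them 56 of the 118 that lay outside 4-cell LADs were gained, and 13 of the 98 inside were released. These genes often cross several bins. When placed by 90% of the body, 108 had no call, and 18 of 52 were gained and 2 of 56 released. Genes of 200 to 500 kb were level, at 47.2% in 8-cell LADs and 47.4% in 4-cell LADs, and genes of 50 to 200 kb were at 28.8% in 8-cell LADs and 33.3% in 4-cell LADs.

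In all, 5295 of 20144 protein-coding genes (26.3%), placed by their midpoint, lay in LADs at the 8-cell stage, and 4978 (24.7%) at the 4-cell stage. LAD bases thus differed by 35.8% while the number of genes in LADs differed little, with many genes crossing in each direction. Of 15166 genes outside 4-cell LADs, 2248 (14.8%) were gained, and of 4978 genes inside, 1931 (38.8%) were released. These shares are the background for every list below. Olfactory and vomeronasal receptor genes accounted for the net increase. They gave 889 genes in LADs at the 8-cell stage and 324 at the 4-cell stage. All other genes together gave 4406 at the 8-cell stage and 4654 at the 4-cell stage, so that more of them were released (1888) than gained (1640).

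Promoters of gained and of released genes differed in base composition. RefSeq promoter sequences (build GRCm38.p6, from 250 bases before to 50 after the gene start) were matched for 82.1% of the genes, chromosome 18 left out. The dinucleotide CG, which can be methylated and clusters in promoters of widely expressed genes, occurred a median of 3 times in gained promoters and 18 times in released ones, with 14 over all promoters. Without the olfactory and vomeronasal receptors the medians were 5 in gained, 18 in released and 16 in all promoters. Promoters were called CpG-rich at a GC content of at least 50% and an observed over expected CG ratio of at least 0.6. By this rule 20.4% of gained and 57.3% of released promoters were CpG-rich, with 47.1% of all promoters. Among promoters taken by stage, 32% of those of genes in 8-cell LADs were CpG-rich and 46.9% of those of genes in 4-cell LADs. With those receptors left out the order was the same, at 28.5% of gained, 58.5% of released and 51% of all promoters. The motif TATAAA, searched on both strands, was in 25.8% of gained, 9.28% of released and 13.7% of all promoters. GATC, the palindrome that Dam methylates, was in 51.3% of gained, 43.3% of released and 46.3% of all promoters.

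**Figure D4:**
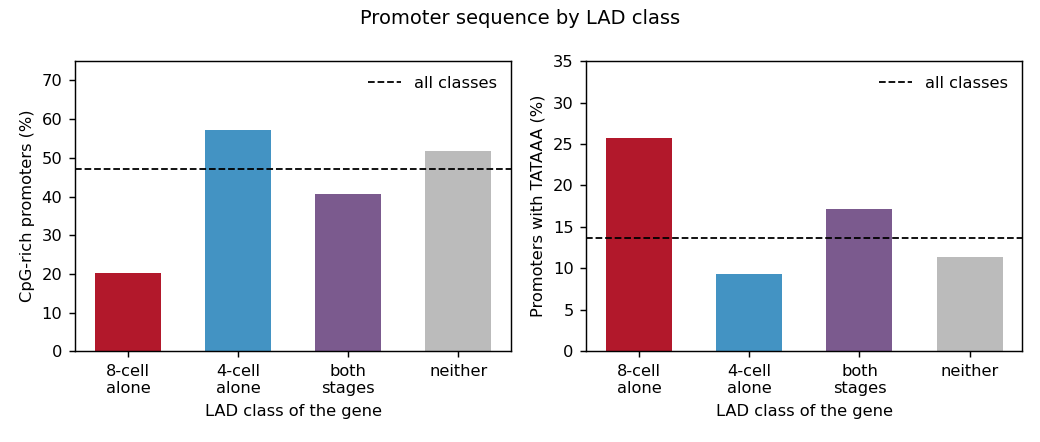
Percentage of promoters that are CpG-rich (left panel) and that hold TATAAA on either strand (right panel), on the vertical axes, for genes that were LAD at the 8-cell stage alone, at the 4-cell stage alone, at both stages or at neither (horizontal axes); the dashed line is the value over all classes. CpG-rich promoters make up 20.4% of the 8-cell-alone class and 57.3% of the 4-cell-alone class, and TATAAA goes the other way.

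Single promoters vary widely within each class, and 3 from gained genes are shown first, with each CG in capitals. Of those chosen but not printed, that of gained Bmp4 holds 12 CG and that of released Spz1 holds 0. Zfp352, a zinc finger gene expressed in early cleavage (chr4:90218570-90218869, plus strand), holds 2 CG, and its first part is a tandem repeat. Olfr1137, the first gene of the largest gained olfactory receptor block (chr2:87711855-87712154, minus strand), holds 2 CG at a GC content of 32.3%. Lamb1, a laminin chain of the basement membrane that primitive endoderm makes (chr12:31265043-31265342, plus strand), holds 18 and shows that CpG-rich promoters were also gained.
Zfp352: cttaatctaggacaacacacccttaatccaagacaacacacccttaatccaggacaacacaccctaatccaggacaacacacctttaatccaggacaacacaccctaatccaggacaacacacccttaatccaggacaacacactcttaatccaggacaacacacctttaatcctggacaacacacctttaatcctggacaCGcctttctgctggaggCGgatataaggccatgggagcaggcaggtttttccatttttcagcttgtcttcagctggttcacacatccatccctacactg
Olfr1137: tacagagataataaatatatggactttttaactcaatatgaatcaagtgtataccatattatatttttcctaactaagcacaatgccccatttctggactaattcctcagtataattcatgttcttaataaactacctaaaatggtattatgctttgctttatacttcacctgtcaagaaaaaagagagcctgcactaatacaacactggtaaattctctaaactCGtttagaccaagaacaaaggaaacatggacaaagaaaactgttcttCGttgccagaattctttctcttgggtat
Lamb1: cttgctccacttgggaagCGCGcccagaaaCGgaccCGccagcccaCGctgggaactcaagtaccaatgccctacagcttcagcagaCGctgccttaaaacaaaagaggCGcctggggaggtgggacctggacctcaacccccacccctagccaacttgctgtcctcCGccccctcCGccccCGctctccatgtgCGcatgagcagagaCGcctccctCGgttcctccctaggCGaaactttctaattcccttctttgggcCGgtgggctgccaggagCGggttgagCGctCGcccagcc

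The released genes are Sox2, the pluripotency factor (chr3:34649745-34650044, plus strand), with 27 CG and a GC content of 66.3%, Zfp54, of a zinc finger cluster (chr17:21422977-21423276, plus strand), with 8 CG, and Fgfr2, the trophectoderm's FGF receptor (chr7:130266759-130267058, minus strand), with 4 CG and 2 GATC. All 6 sequences are from RefSeq, build GRCm38.p6, written along the gene's strand.
Sox2: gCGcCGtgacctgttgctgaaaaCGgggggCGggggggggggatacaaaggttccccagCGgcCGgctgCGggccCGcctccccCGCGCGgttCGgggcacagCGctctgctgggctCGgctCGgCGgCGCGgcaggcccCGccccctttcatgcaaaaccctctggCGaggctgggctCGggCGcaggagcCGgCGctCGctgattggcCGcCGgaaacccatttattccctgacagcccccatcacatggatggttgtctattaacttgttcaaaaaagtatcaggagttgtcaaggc
Zfp54: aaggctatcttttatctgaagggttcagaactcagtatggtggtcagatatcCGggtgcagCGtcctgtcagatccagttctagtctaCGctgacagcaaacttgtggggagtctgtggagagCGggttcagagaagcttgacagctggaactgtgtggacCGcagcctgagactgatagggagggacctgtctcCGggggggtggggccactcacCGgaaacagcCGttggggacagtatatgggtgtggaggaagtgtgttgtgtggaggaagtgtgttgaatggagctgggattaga
Fgfr2: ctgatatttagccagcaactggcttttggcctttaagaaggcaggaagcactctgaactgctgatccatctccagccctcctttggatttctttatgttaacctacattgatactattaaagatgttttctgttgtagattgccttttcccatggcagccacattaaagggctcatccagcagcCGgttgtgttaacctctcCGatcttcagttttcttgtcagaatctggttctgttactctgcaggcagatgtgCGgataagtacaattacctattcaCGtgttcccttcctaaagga

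Receptors for odours and pheromones, which are expressed in sensory neurons and lie in large tandem clusters, were the largest group to be gained. Of 829 olfactory receptor genes outside 4-cell LADs, 418 (50.4%) were gained, and 43 of 272 inside were released. The largest gained block was 1.7 Mb on chromosome 2 (87700001 to 89400000) with 75 genes, Olfr1137 to Olfr1234. The next was a freestanding 1 Mb on chromosome 7 (102500001 to 103500000) with 50 genes, Olfr547 to Olfr609. Released were whole LADs on chromosome 9 (37500001 to 38100000, 12 genes, Olfr160 to Olfr887) and on chromosome 2 (85000001 to 85600000, 8 genes, Olfr987 to Olfr998), so chromosome 2 held blocks of both kinds. Vomeronasal receptors changed in 1 direction. Of the type 1 genes, 111 of 188 outside were gained and 0 of 39 inside were released, with 31 genes in a 1.1-Mb stretch of chromosome 13 (22100001 to 23200000, Vmn1r189 to Vmn1r220) and 16 in 0.9 Mb of chromosome 7 (23300001 to 24200000, Vmn1r167 to Vmn1r183). Of the type 2 genes, 77 of 107 were gained and 0 of 13 released, with 14 in the gap closure on chromosome 7 described above (Vmn2r66 to Vmn2r79) and 10 in 0.7 Mb of chromosome 5 (108800001 to 109500000, Vmn2r8 to Vmn2r17). Taste and trace amine receptors, also chemosensory, differed in gain, with 0 of 21 gained. Of the 32 inside, 3 were released, on chromosome 6 in stretches with Tas2r118 and with Tas2r139 to Tas2r144. This released share of 9.38% was low, like the 15.8% of olfactory receptors, beside 38.8% of all genes. Genes of a cluster share their bins, so a stretch and not a gene is the unit of change, and the 418 olfactory receptors lay in 23 stretches.

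**Figure D5:**
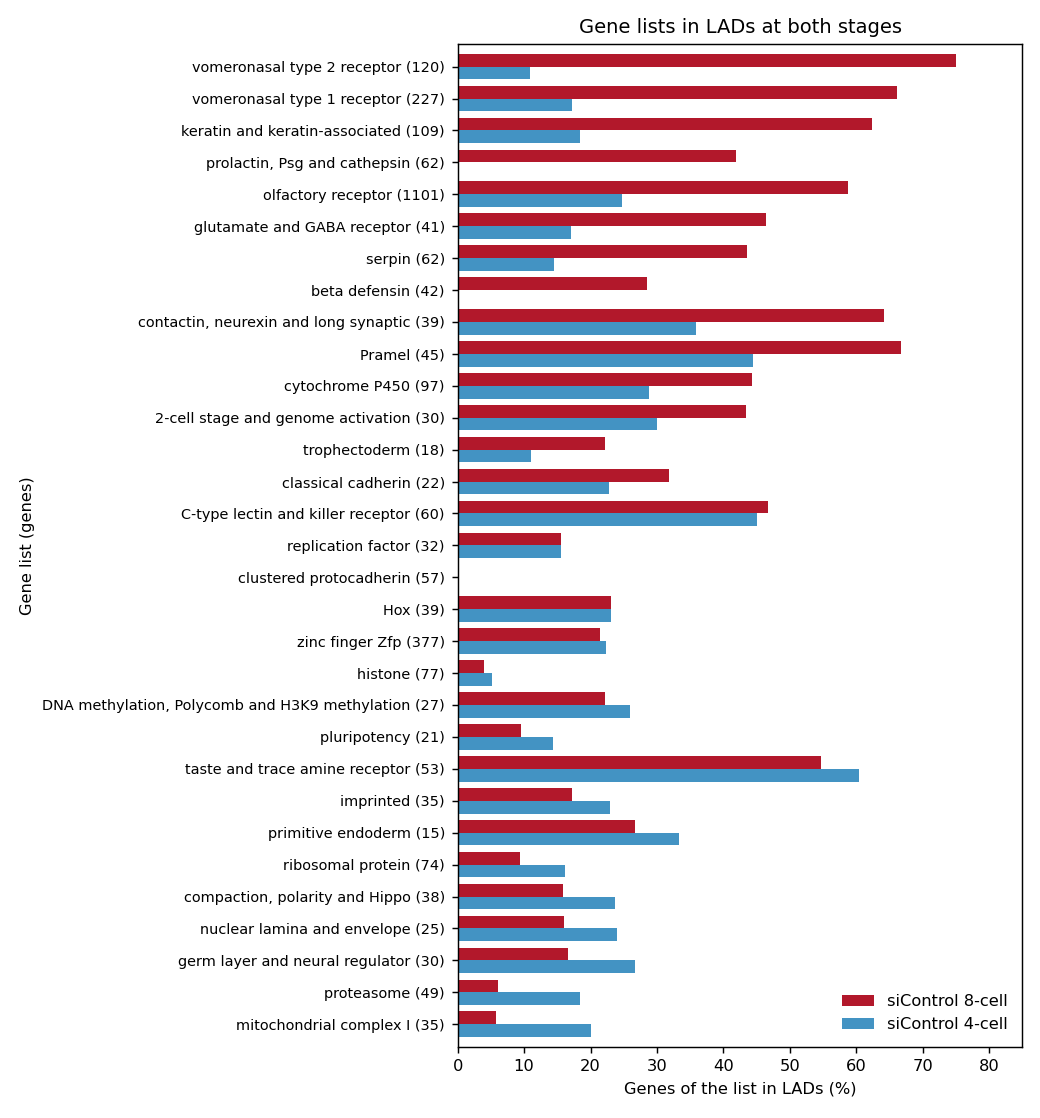
Percentage of the genes of each of 31 lists that lay in LADs (horizontal axis) in siControl 8-cell embryos (upper bar) and siControl 4-cell embryos (lower bar); list sizes are in brackets and lists run down by the difference between the stages. Vomeronasal type 2 receptors stand at the top (75% against 10.8%), and mitochondrial complex I stands at the bottom (5.71% against 20%).

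Other families that adult tissues express were gained in a few blocks. Keratin and keratin-associated genes, the fibres of skin and hair, were gained for 55 of 89 and released for 7 of 20. The keratin cluster of chromosome 11 divided at 1 point, with 43 genes gained on one side (99400001 to 100300000, Krt12 to Krt42) and all 7 released genes on the other (98700001 to 99400000, Krt222 to Krt10). The other 12 gained genes lay on chromosome 16 (88900001 to 89600000, Krtap19-9b to Krtap11-1). Serpins, protease inhibitors, were gained for 19 of 53 and released for 1 of 9 (Serpinc1, the antithrombin gene, in a 0.3-Mb split on chromosome 1, 160900001 to 161200000). The gained serpins lay on chromosome 13 (32800001 to 33500000, 12 genes, Serpinb1a to Serpinb9g) and chromosome 1 (107100001 to 108700000, 7 genes, Serpinb3b to Serpinb8). Cytochrome P450 genes, oxidases of steroids and drugs, were gained for 25 of 69 and released for 10 of 28. The main gained blocks were on chromosome 5 (145300001 to 146500000, 8 genes, Cyp3a57 to Cyp3a59) and chromosome 4 (95900001 to 97800000, 7 genes, Cyp2j13 to Cyp2j5). Release took 4 genes on chromosome 19 (40000001 to 40700000, Cyp2c37 to Cyp2c70) and 3 on chromosome 7 (27000001 to 27400000, Cyp2a12 to Cyp2t4).

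Of the placental prolactin, Psg and cathepsin genes none of 62 was in 4-cell LADs and 26 were gained. These were 18 on chromosome 7 (17000001 to 18800000, Psg16 to Psg19, pregnancy-specific glycoproteins) and 8 on chromosome 13 (59900001 to 61700000, Ctsj to Cts3, placental cathepsins). The 12 gained beta defensins of 42, antimicrobial peptides, lay in a freestanding 1.6-Mb stretch of chromosome 8 (19000001 to 20600000): Defb3, Defb4, Defb5, Defb6, Defb7, Defb8, Defb12, Defb14, Defb34, Defb38, Defb39 and Defb46. Pramel genes, a family expressed in germ cells and early embryos, were gained for 10 of 25 and released for 0 of 20. They lay in 2 stretches of chromosome 5, with Pramel36 to Pramel40 (93900001 to 94400000) and Pramel46 to Pramel50 (95200001 to 95800000). Of the C-type lectins and killer receptors of immune cells, 3 of 33 were gained, including Clec14a and Klrg1, and 2 of 27 released, Clec3b and Clec4g. The gained share was 9.09%, beside 14.8% of all genes, and the released share 7.41%, beside 38.8% of all genes.

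Genes of synapses were gained for 38.2% and 48% of the members outside 4-cell LADs in the 2 lists of such genes, beside 14.8% of all genes. Placed by 90% of the body, 9 of 26 and 5 of 12 members were gained, and 11 and 22 members had no call. Of the glutamate and GABA receptor subunits, which carry fast and modulatory signals between neurons, 13 of 34 were gained and 1 of 7, Grik5, was released. Gained GABA-A receptor genes included Gabrg1, Gabra2 and, in a stretch of its own (71700001 to 72500000), Gabrb1 on chromosome 5. Gabra5 on chromosome 7 (57300001 to 59400000) and Gabra6 and Gabrb2 on chromosome 11 (42200001 to 43100000) were gained as well. Gained glutamate receptor genes included Gria4, Grid1, Grm5, Grm7 and Grm8. Of the contactins, neurexins and other long synaptic genes 12 of 25 were gained: Cntn4, Cntn6, Cntnap5a, Cntnap5c, Csmd3, Dcc, Dlg2, Dpp10, Fgf14, Ptprd, Tenm2 and Tenm3. Only Kcnip4, a potassium channel partner, was released of the 14 inside. Dcc, the netrin receptor, lay in a 2.3-Mb gap closure on chromosome 18 (70600001 to 72900000). Among classical cadherins, Cdh9 and Cdh20 were gained of 17 and 0 of 5 released. Such genes span several stretches, and the call of Cdh20, Cntn4, Cntnap5a, Csmd3, Dlg2, Dpp10, Gabrb1, Grid1, Grm7, Grm8, Kcnip4, Ptprd, Tenm2 and Tenm3, among others, depended on whether the gene was placed by its midpoint, its start or 90% of its body.

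Of the genes typical of the 2-cell stage and genome activation, which are switched off by the later cleavages, 7 of 21 were gained and 3 of 9 released. The list stood at 43.3% in 8-cell LADs and 30% in 4-cell LADs. Gained were Zfp352 on chromosome 4, and on chromosome 7 Zscan4c and Zscan4d (11000001 to 11300000), of a telomere-related family. Also gained were the homeobox gene Obox2, Tcstv3, and the deubiquitinase genes Usp17lc and Usp17ld within the gained olfactory receptor block of chromosome 7. Released were Arg2, an arginase, Eif1a, a translation initiation factor, and Spz1. Zscan4, Obox and Tcstv genes have near-identical copies, and how reads were divided among them is not given in the sources used here.

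Genes of the first lineages changed in both directions, in small numbers. Gained shares were 18.75% for trophectoderm, 10% for primitive endoderm and 0% for pluripotency genes, beside 14.8% of all genes. Released shares, of 5 genes or fewer, were 50%, 40% and 33.3% in this order, beside 38.8% of all genes. Of 16 trophectoderm genes outside 4-cell LADs, Ascl2 and Eomes, trophoblast transcription factors, and Bmp4, a signal of the TGF-beta family, were gained, and Fgfr2 was released of 2 inside. Eomes was gained in 1 bin only, where a border moved out by 100 kb. Of the pluripotency genes 0 of 18 were gained and 1 of 3 was released, Sox2, in a 0.5-Mb retraction on chromosome 3 (34600001 to 35100000). The Sox2 midpoint was LAD in both siRif1 lists. Of the primitive endoderm genes Lamb1 was gained of 10, and the transcription factors Gata6 and Sox17 were released of 5. Lamb1 had no call when placed by 90% of its body. By that placing 0 of 9 genes of the list were gained, and by the gene start 2 of 10 were. Sox17 left a LAD border on chromosome 1 (4200001 to 4800000) and Gata6 the 3.1-Mb stretch of chromosome 18. Of genes for compaction, polarity and Hippo signalling, processes that set in at the 8-cell stage, 0 of 29 were gained and 3 of 9 released. The released share of 33.3% was near the background of 38.8%. The released genes were Prkci, the atypical protein kinase C of the apical domain, Amotl2, an angiomotin of the Hippo pathway, and Tead1, a partner of YAP. The midpoints of all 3 were outside LADs in both siRif1 lists.

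Among lists of later developmental genes, only that of germ layer and neural regulators changed mainly by release. Of germ layer and neural regulators 2 of 22 were gained, among them Isl1, in a stretch of 1 bin, and 5 of 8 were released: En1, En2, Pax6, Sox10 and Tbx6. Hox genes kept their state, with 0 of 30 gained and 0 of 9 released, and all 57 clustered protocadherins were outside LADs at both stages. Among the Zfp genes, many of them repressors of the zinc finger class, 37 of 293 were gained and 40 of 84 released, both near the background. The largest block of each kind was 7 genes gained on chromosome 6 (47700001 to 48200000, Zfp786 to Zfp746) and 10 released on chromosome 17 (21400001 to 21900000, Zfp54 to Zfp995). The next were 4 gained on chromosome 2 (177000001 to 178100000, Zfp970 to Zfp931) and 5 released on chromosome 7 (126100001 to 127400000, Zfp553 to Zfp764).

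Genes of the lamina itself were among those released. Of 6 nuclear lamina and envelope genes inside 4-cell LADs, 4 were released: Lmnb1, which encodes lamin B1, the protein mapped here, Sun2, a LINC complex protein, Tmpo, which encodes the lamina protein LAP2, and Cbx5, which encodes the heterochromatin protein HP1 alpha. Of 19 outside, Sun1, the paralogue of Sun2, and Tpr, of the nuclear pore basket, were gained, Sun1 in a stretch of 1 bin. The injected fusion is an mRNA, so Lmnb1's place in the list refers to the embryo's own gene. Of DNA replication factors, Gins1 and Mcm5, both of the replicative helicase, were gained of 27 (7.41%, beside 14.8% of all genes). Cdc6 and Cdc7, which act in its loading and activation, were released of 5. That released share of 40% was near the background of 38.8%. Among enzymes of DNA methylation, Polycomb and H3K9 methylation, the demethylase gene Kdm6b was gained of 20 (5%). The H3K9 methyltransferase genes Ehmt2 and Suv39h2 were released of 7 (28.6%), Ehmt2 with a LAD of 1 bin. Both shares were below those of all genes.

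Of the imprinted genes, which are expressed from the copy of 1 parent, 3 of 27 were gained and 5 of 8 were released. Placed by the gene start, 6 of 26 were gained and 6 of 9 released. Peg3, Usp29 and Zim1 are neighbours and left together with a whole 0.4-Mb LAD on chromosome 7 (6500001 to 6900000). Nap1l5 left with a whole 0.4-Mb LAD on chromosome 6 (58600001 to 59000000), and Impact with the Gata6 stretch. Ube3a was gained together with Gabra5 on chromosome 7. Dlk1 and Rtl1 were gained in the freestanding 0.8-Mb stretch of chromosome 12 (109000001 to 109800000) taken up below. The lists do not separate the parental copies.

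Genes that every cell uses had few members gained, and most of their few members in 4-cell LADs were released. Of ribosomal protein genes 2 of 62 were gained, Rpl10l, a testis-expressed copy, and Rpl37a, and 7 of 12 were released, among them Rpl27a and Rps27l, each in a stretch of its own. Of proteasome genes 1 of 40 was gained, Psmd14, and 7 of 9 were released, among them Psma4 and Psmg1. Of mitochondrial complex I genes 0 of 28 were gained and 5 of 7 were released: Ndufa4, Ndufa5, Ndufb1, Ndufb2 and Ndufs1. Ribosomal protein genes thus stood at 9.46% in 8-cell LADs and 16.2% in 4-cell LADs, and proteasome genes at 6.12% in 8-cell LADs and 18.4% in 4-cell LADs. Complex I genes stood at 5.71% in 8-cell LADs and 20% in 4-cell LADs. Only 4 of 77 histone genes lay in 4-cell LADs, and H1f0, the linker histone of resting cells, was released on chromosome 15 (78800001 to 79800000) with Sun2 and Sox10.

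Genes of miRNAs, looked at after their values were seen, came to shares close to those of protein-coding genes, with 127 of 897 gained (14.2%) and 82 of 206 released (39.8%). Of the 127 gained, 60 lay in the Dlk1 stretch of chromosome 12, so the gained share rests in large part on a single stretch. This stretch also held the non-coding genes Meg3, Rian and Mirg, maternally expressed transcripts that host many of these miRNAs. Dio3, at the far end of the same imprinted domain, lay in no LAD of any list. Shown are 4 miRNAs of this stretch, with the seed (bases 2 to 8, which pair with targets) in capitals. Neighbouring genes here can share a seed, as the first 2 do.
miR-379-3p: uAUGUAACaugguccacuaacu
miR-411-3p: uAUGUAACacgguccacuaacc
miR-127-3p: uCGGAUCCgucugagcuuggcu
miR-134-5p: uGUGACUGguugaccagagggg

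A miRNA trio of the order miR-99, let-7 and miR-125 exists in 3 copies, and 2 of them were gained. Mir99b, Mirlet7e and Mir125a lay in a 1-Mb stretch of chromosome 17 (17500001 to 18500000), and Mir100, Mirlet7a-2 and Mir125b-1 in a 0.2-Mb stretch of chromosome 9 (41400001 to 41600000). Mir99a, Mirlet7c-1 and Mir125b-2 on chromosome 16 were in neither control list. The sequences, from RefSeq build GRCm38.p6 as above, show that the gained copies carry the same seeds, ACCCGUA and CCCUGAG, and that miR-125b-5p is made from a gained gene and from a gene outside LADs at both stages.
miR-99b-5p: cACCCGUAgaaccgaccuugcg
miR-100-5p: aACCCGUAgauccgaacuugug
let-7e-5p: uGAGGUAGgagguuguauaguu
miR-125a-5p: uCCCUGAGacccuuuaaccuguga
miR-125b-5p: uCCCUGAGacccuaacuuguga

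Bases that changed between the control stages were compared with the siRif1 embryos, which are other samples. Of gained bases, 64.2% were LAD in siRif1 8-cell embryos and 55% in siRif1 4-cell embryos. Bases outside 4-cell LADs that were not gained had 18.7% in siRif1 8-cell embryos and 12.7% in siRif1 4-cell embryos. Released bases were LAD for 31.6% in siRif1 8-cell embryos and 51.7% in siRif1 4-cell embryos, and 4-cell LAD bases that were kept had 75.5% in siRif1 8-cell embryos and 90.2% in siRif1 4-cell embryos. Most gained bases were thus LADs in the other embryos too, 64.2% at the 8-cell stage and 55% at the 4-cell stage. These were only partly the same bases, as 40.5% of gained bases were LAD in both siRif1 lists and 21.3% in neither. Gap closures had the highest share, with 75.5% LAD in siRif1 8-cell embryos, and freestanding stretches the lowest, with 56.1%.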

How the data were processed

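LaminB1 DamID was compared between the siControl 8-cell and 4-cell groups, 3 replicates each. Per the submitters' processing notes, Trimmomatic, Bowtie2, SAMtools and Picard were used and the build was mm10 (GRCm38). The authors deposited 1 LAD list per group with start and end coordinates on a 100-kb grid and no score, made from all replicates per the series' design text. The LAD caller, its thresholds, the Dam-only correction, the treatment of reads with several matches and the depth are not stated in the sources used, so no interval could be set from depth.

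Each 100-kb bin was classed by the 2 lists as LAD at both stages, at the 8-cell stage alone (gained), at the 4-cell stage alone (released) or at neither. Genes came from RefSeq (GRCm38.p6) and took the class of the bin at their midpoint. With 1 list per group there was no test. Code was tested on simulated lists and run with Python 3.11.15, numpy 2.4.6, pandas 2.3.3 and matplotlib 3.10.9. Alternatives were LADs of at least 300 kb, bridged gaps of up to 200 kb, bins next to a border unassigned, chromosome 13 left out, genes placed by start or by 90% of the body, and all annotated genes.

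The members and the 31 gene lists were chosen with earlier results of these data known. Named are the 10 longest stretches each way, every member with changed state of lists of at most 45 genes, the 2 stretches each way that hold most members of longer lists, the 5 chromosomes with the largest and the 3 with the smallest difference, and 8 promoters of such genes, of which 6 are printed; a few genes that meet this rule are not reported here. The miRNA genes, gene-free blocks and the run without olfactory and vomeronasal receptors were added after values were seen. Replicate numbers are shared between groups, but the lists carry no replicates.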

Additional observations from a re-analysis of the deposited data

How the results depend on the processing

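Of 54 values under alternatives, 46 stayed within 1.5 times the value reported (shares, within its 95% binomial interval), 8 moved further and 0 reversed. Some settings changed the lists very little, as bridging gaps left gained bases at 484.5 Mb, so the tally is a limited check. The interval treats bins as independent, which neighbouring bins are not. Leaving bins next to a LAD border unassigned brought the bases LAD at the 4-cell stage alone to 125.5 Mb, the Jaccard index of the 2 lists (shared over joint bases, 45.9% as reported) to 49.7%, the released genes to 1143 and the released list members to 86. Under it gained bases came to 346.8 Mb and gained genes to 1535, since this setting removes bins. Counting all annotated genes can only raise the number of genes per Mb. It gave 13.2 in gained bases, 21.1 in released bases, 14.3 in bases LAD at both stages and 24.1 at neither, an order like that of protein-coding genes. Without chromosome 13 the difference in LAD bases was 250.5 Mb. Of 70 named gained genes 61 kept their class when placed by the gene start and 56 when placed by 90% of the body, and of 35 named released genes 33 did under either. No paired analysis was possible because each group has 1 list made from all its replicates. For the same reason no replicate could be left out, and the spread between replicates is not known.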

Other observations

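The stage difference also varied along the chromosomes, which in the mouse have their centromere at the start. When each chromosome was divided into 10 equal parts, part 6 differed most, with 50.9% LAD at the 8-cell stage and 30.7% at the 4-cell stage, and part 9 differed least, with 49.7% at the 8-cell stage and 44.1% at the 4-cell stage. The first 10 Mb of the spans were 50.5% LAD at the 8-cell stage and 40.9% at the 4-cell stage, and the last 10 Mb were 47.1% at the 8-cell stage and 36.5% at the 4-cell stage. The remainder had 43.96% at the 8-cell stage and 31.9% at the 4-cell stage, below both ends. Each span begins and ends with a LAD by its definition, which raises the values at the ends. The ends and the remainder are therefore not measured alike, and no conclusion is drawn from their order.

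Several miRNA genes of muscle and heart lay in the released Gata6 stretch of chromosome 18 (Mir133a-1, Mir1b and Mir1a-2), which made it the released stretch with most miRNA genes, 5 in all. On chromosome 13 the gained stretch from 63100001 to 64100000 held the cluster of Mir23b, Mir27b and Mir24-1. These genes were picked after their values were seen.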
